A study of Mus musculus with 4 samples.

Results

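Histone methyltransferases and demethylases were followed in the lining epithelium of the fetal mouse tongue, in libraries labelled as lacking Polycomb repressive complex 1 and in control libraries. The genes were chosen by symbol: the Kmt, Kdm, Setd, Mll, Ehmt, Suv39, Suv420 and Prmt families together with Dot1l, Nsd1, Whsc1, Whsc1l1 and Ash1l, without Kdm2b and Kdm5d. This gave 52 of the 24453 genes in the files. The files list Whsc1 and Whsc1l1 under their newer symbols Nsd2 and Nsd3. Of the 52, 48 had enough reads to be tested and 4 did not: Kdm4d, Prmt8, Setdb2 and the read-through gene Setdb2-phf11c.

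The first group, called 2KO here, holds 2 libraries from embryos labelled Ring1a-/- Ring1bfl/fl K14-Cre+, and the second holds 2 libraries labelled Control, all from embryonic day 16. By this genotype Ring1 (Ring1a) is missing from every cell of the 2KO embryos, whereas Rnf2 (Ring1b) is removed only where the Krt14 promoter has driven the Cre recombinase, that is, in stratified epithelium from its basal layer onward. The alleles carried by the control embryos and any pooling of embryos are not stated in the labels, nor is it stated that replicates come from different embryos, so a p-value here sets a difference against a library-to-library spread that could be technical. Cells positive for EpCAM, an epithelial surface protein, were isolated by sorting from tongues cut to leave out the rear papillae, and 15 ng of RNA was amplified before sequencing.

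Methyl groups on histone tails mark chromatin as open or closed to transcription. Methylation of histone H3 at lysine 4 (H3K4), lysine 36 and lysine 79 goes with active genes, whereas methylation at lysine 9 (H3K9), at lysine 27 (H3K27, the mark laid down by Polycomb repressive complex 2) and at lysine 20 of histone H4 goes with silent or compacted chromatin. Writers add these groups and erasers remove them. The members were therefore sorted into 19 activating enzymes (writers of active marks and erasers of silent ones), 16 repressing enzymes (the reverse) and 17 whose histone mark is unsettled, works both ways or was not classed. Among the H4K20 writers, Kmt5a was kept with the unsettled enzymes, and Kmt5b and Kmt5c with the repressing ones. Ring1 and Rnf2 ubiquitinate histone H2A and are not members.

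The libraries held 18039767 and 20545262 counts in 2KO and 20624055 and 16256569 counts in Control. The ribosomal RNA precursor Rn45s took 22.9% and 20.2% of the 2KO counts and 16.7% and 15.3% of the Control counts. Both targeted genes had positive log2 fold changes in 2KO without passing the test (0.85 for Ring1, adjusted p = 0.101, and 0.56 for Rnf2, adjusted p = 0.126, edgeR): CPM (counts scaled to library size by TMM) were 16.8 and 15.0 in 2KO and 9.02 and 8.57 in Control for Ring1, and 62.9 and 62.4 in 2KO and 34.0 and 51.3 in Control for Rnf2. Counts over a whole gene can miss a deleted exon, so they do not check the genotype, and 2KO below means the libraries labelled so. The 10 epithelial markers summed to 11665 and 12365 CPM in 2KO and to 17839 and 14414 CPM in Control, and all 10 had reads in every library. Krt13, Dsc3, Krt14 and Krt5 among them fell, 0 rose and 6 did not pass. In all, 4 had positive log2 fold changes (Itga6 0.34, Epcam 0.17, Col17a1 0.10 and Trp63 0.0012) and 6 had negative ones. The part of these changes in the members' values was not tested. All 4 libraries looked alike in sex-linked genes: Xist, the RNA of the inactive X chromosome, lay between 2.11 and 5.22 CPM, and the Y-linked Ddx3y between 56.0 and 75.8 CPM.

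Few of these enzymes passed the test, which with 2 libraries per group does not show that the others were unchanged. Of the 48 tested, 2 rose (Kdm6b and Setd1a), 1 fell (Setd3) and 45 did not pass the test (edgeR's quasi-likelihood test, two-sided, Benjamini-Hochberg adjusted p under 0.05 over all 15336 genes tested). That is 6.25% of the members, beside 11.9% of all genes tested, of which 7.00% were higher and 4.92% lower. Before adjustment, 6 of the 48 were higher and 6 lower at p under 0.05 (edgeR), beside 14.5% and 13.2% of all genes tested. In 29 of the 48 (60.4%) both 2KO libraries lay on one side of both Control libraries, beside 57.7% of all genes: above in 12 members, beside 29.0% of all genes, and below in 17, beside 28.7%. DESeq2 and limma-voom each also gave 2 members higher and 1 lower. DESeq2 called 12.5% of the 19211 genes with any count, and limma-voom called 12.8% of the 15336 genes it tested. With a correction for GC content and transcript length, 1 was higher and 1 lower, beside 11.1% of genes. For 40 of the 48, the 95% interval of the log2 fold change lay within 1 unit of 0, that is, within a 2-fold change in either direction.

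Upstream sequence is shown for Setd1a and Setd3, the called members that matched an entry in the RefSeq promoter table (build GRCm38.p6), to let their CpG content be compared; Kdm6b had no match. The 250 bases before the listed start of Setd1a (chr7:127777139-127777388, plus strand) and of Setd3 (chr12:108179285-108179534, minus strand) are given 5′ to 3′, with every CpG dinucleotide in capitals.
Setd1a: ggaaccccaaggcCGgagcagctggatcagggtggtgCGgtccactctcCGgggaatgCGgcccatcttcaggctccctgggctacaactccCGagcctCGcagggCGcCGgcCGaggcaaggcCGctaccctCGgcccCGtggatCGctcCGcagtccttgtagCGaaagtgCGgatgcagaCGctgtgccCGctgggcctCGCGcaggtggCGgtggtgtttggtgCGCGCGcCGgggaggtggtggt
Setd3: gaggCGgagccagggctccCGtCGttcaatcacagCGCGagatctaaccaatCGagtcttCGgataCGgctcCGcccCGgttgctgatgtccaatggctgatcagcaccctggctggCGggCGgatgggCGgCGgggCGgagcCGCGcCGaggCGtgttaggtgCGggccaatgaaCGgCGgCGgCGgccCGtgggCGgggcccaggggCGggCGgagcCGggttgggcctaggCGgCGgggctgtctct
The Setd1a window holds 25 CpGs, a number reached by 10.3% of the 27025 genes in the table, and the Setd3 window holds 31, reached by 4.93%. The motif GGGCGG, searched on both strands with overlapping sites counted, occurs 7 times in the Setd3 window and not in the Setd1a window; 32.9% of all genes have it in this window. Over the 39 members in the table the median was 17 CpGs, against 6 over all genes, non-coding genes included. Both windows thus hold more CpGs than that of the median member. They reach into the gene as GENCODE places it, wholly for Setd1a and at the last bases for Setd3.

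By level, the members span a wide range. In FPKM (fragments scaled by transcript length and depth, which allows genes to be compared), 39 of the 52 averaged at least 10. Kdm6b had the highest mean over the 4 libraries, at 99.9 ± 7.59 FPKM in 2KO and 54.0 ± 10.5 FPKM in Control (mean ± SD, n = 2 libraries per group, here and below). It was followed by Kmt5a, the writer of monomethylated lysine 20 on histone H4, at 62.3 ± 13.3 FPKM in 2KO and 81.8 ± 13.5 FPKM in Control, and by Setd5 at 51.1 ± 0.825 FPKM in 2KO and 47.1 ± 0.611 FPKM in Control. Kdm6b thus led in 2KO, whereas Kmt5a led in Control. Prmt1, the main asymmetric arginine methyltransferase, and Nsd3, a writer of dimethylated H3K36, came next.

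**Figure D1:**
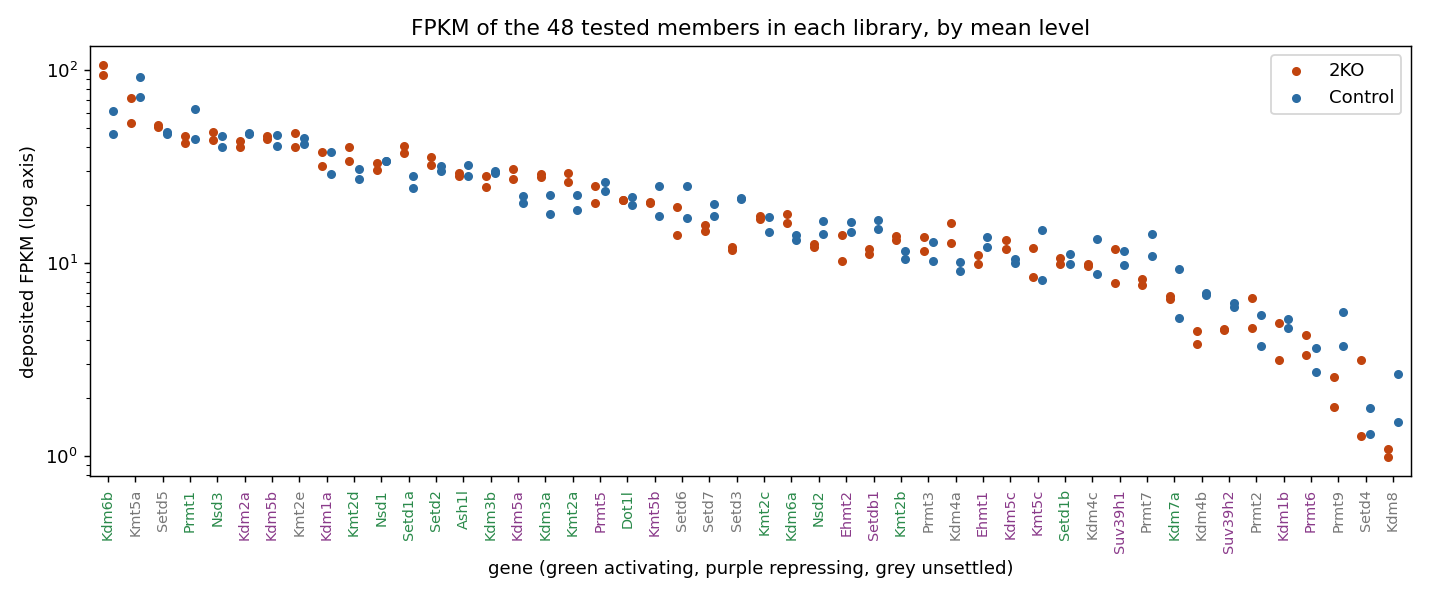
Deposited FPKM (log axis) of the 48 tested members, ordered from the highest to the lowest mean, with one point per library, 2KO left of Control for each gene. Kdm6b leads in 2KO at 99.9 FPKM on average and Kmt5a leads in Control at 81.8 FPKM.

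Kdm6b (JMJD3), an eraser of the Polycomb mark H3K27 trimethylation, had the greatest increase of all members. It stood at 676 and 679 CPM in the 2KO libraries and at 369 and 271 CPM in the Control libraries. Both 2KO libraries lay above both Control libraries, and the log2 fold change was 1.08 (standard error 0.167, 95% interval 0.72 to 1.45, adjusted p = 0.00226). The call held when any one library was left out, and the log2 fold change was 0.61 once GC content and transcript length were corrected for, still past the threshold. Kdm6b lies on chromosome 11 (69398508 to 69413675, mm10). The antisense gene Kdm6bos overlaps its exons, and since the strand setting of the counting is not given, reads of both may be counted together.

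The other H3K27 eraser, the X-linked Kdm6a (UTX), did not pass the test. It had 126 and 111 CPM in 2KO and 109 and 106 CPM in Control, which do not overlap, with a log2 fold change of 0.14 (95% interval -0.21 to 0.50, adjusted p = 0.616). The FPKM of Kdm6b was 5.86 and 5.87 times that of Kdm6a in the 2KO libraries and 4.39 and 3.54 times in the Control libraries. In both groups, then, Kdm6b RNA outweighed Kdm6a RNA per length. The ratios are not corrected for GC content, which was 59.6% for Kdm6b and 42.5% for Kdm6a. With the correction for GC content and length, the log2 fold changes were 0.61 for Kdm6b and 0.23 for Kdm6a. Reads of Kdm6a and its Y-linked homolog Uty can be split wrongly in places where the genes are alike.

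Setd1a, the catalytic subunit of a COMPASS complex that trimethylates H3K4 at promoters, was the other member called higher. It had 238 and 249 CPM in 2KO and 174 and 150 CPM in Control, with no overlap (log2 fold change 0.59, standard error 0.153, adjusted p = 0.0309, edgeR). The call ended without 2KO replicate 1 (adjusted p = 0.0715), without 2KO replicate 2 (0.130) and without Control replicate 2 (0.0666). It also ended on FPKM values (0.0848) and after the correction for GC content and length (log2 fold change 0.25, adjusted p = 0.303). Setd1a lies on chromosome 7 (127776670 to 127800122, mm10), where its exons overlap the annotated genes Gm49388 and 9430064I24Rik.

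Setd3 was the member called lower. It carries a SET domain like many histone writers but is known as the histidine methyltransferase of actin, and it was therefore kept among the unsettled enzymes. It had 40.7 and 46.1 CPM in 2KO and 81.7 and 86.5 CPM in Control. Both 2KO libraries lay below both Control libraries, and the log2 fold change was -0.96 (standard error 0.180, 95% interval -1.35 to -0.56, adjusted p = 0.00719). The call held when any one library was left out and after the GC content and length correction (-0.78). Setd3 lies on chromosome 12 (108106431 to 108179314, mm10), and no other annotated exon overlaps its own.

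**Figure D2:**
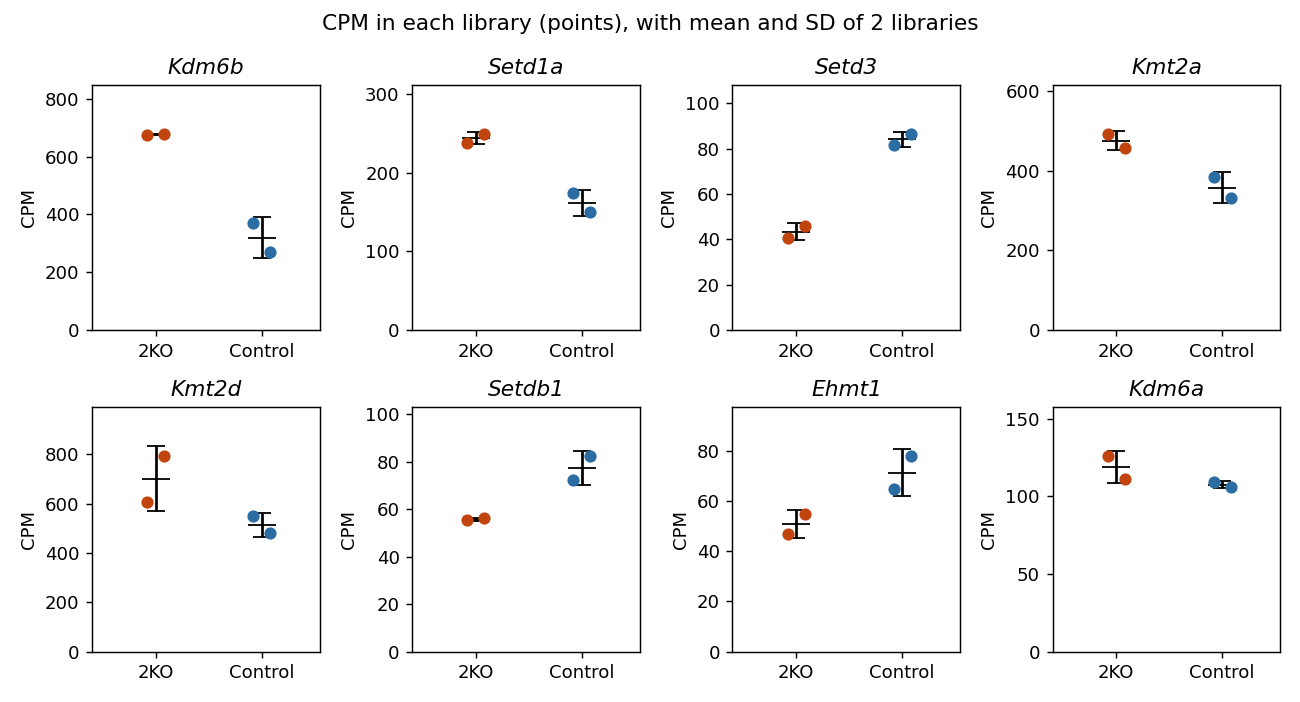
CPM of 8 members in each library, with 2KO left of Control, points for libraries and bars for the mean and SD of the 2 libraries of a group. Kdm6b and Setd1a lie higher and Setd3 lower in 2KO; Kmt2a, Kmt2d, Setdb1, Ehmt1 and Kdm6a did not pass the test.

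The activating and repressing enzymes were then set side by side. Of 18 activating enzymes tested, 2 rose, 0 fell and 16 did not pass, with a median log2 fold change of 0.04. Among all genes tested, 7.00% rose and 4.92% fell. Of 15 repressing enzymes tested, none passed in edgeR, DESeq2 or limma-voom, and the median was -0.17. At an unadjusted p under 0.05 in edgeR, 5 of the 18 activating enzymes were higher and 1 lower. Of the 15 repressing enzymes 0 were higher and 2 lower, where 14.5% of all genes tested were higher and 13.2% lower. Over all genes tested the median was 0.01. The gap between the medians was 0.21, and the sign of the change split 9 to 9 among activating enzymes and 4 positive to 11 negative among repressing ones. With the correction for GC content and length the gap was 0.003, the activating median -0.16 and the activating split 5 positive to 13 negative. The unadjusted counts were then 2 higher and 3 lower for activating enzymes, and 0 higher and 4 lower for repressing ones. Of all 15221 genes in that fit, 2156 were higher and 1829 lower. With 1 library left out the gap ranged from 0.089 (without 2KO replicate 1) to 0.32 (without Control replicate 2), and the repressing median from -0.26 (without Control replicate 2) to -0.04 (without 2KO replicate 1). No test was made over the lists.

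Library by library, the median over activating enzymes of log2 CPM relative to each gene's mean was -0.03 and 0.05 in 2KO and -0.01 and -0.11 in Control. For repressing enzymes it was -0.13 and 0.04 in 2KO and 0.12 and 0.06 in Control. Activating minus repressing gave 0.09 and 0.01 in 2KO and -0.13 and -0.16 in Control, so both 2KO libraries lay above both Control libraries. For single genes, the groups did not overlap in 57.7% of all genes tested. All values in this paragraph are without the correction for GC content and length, with which the gap between the median log2 fold changes was 0.003. Summed FPKM of activating enzymes was 2.05 and 1.89 times that of repressing enzymes in 2KO and 1.67 and 1.60 times in Control. Without Kdm6b these ratios were 1.65 and 1.56 in 2KO and 1.46 and 1.43 in Control. Kmt5a, kept with the unsettled enzymes, is in neither sum.

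**Figure D3:**
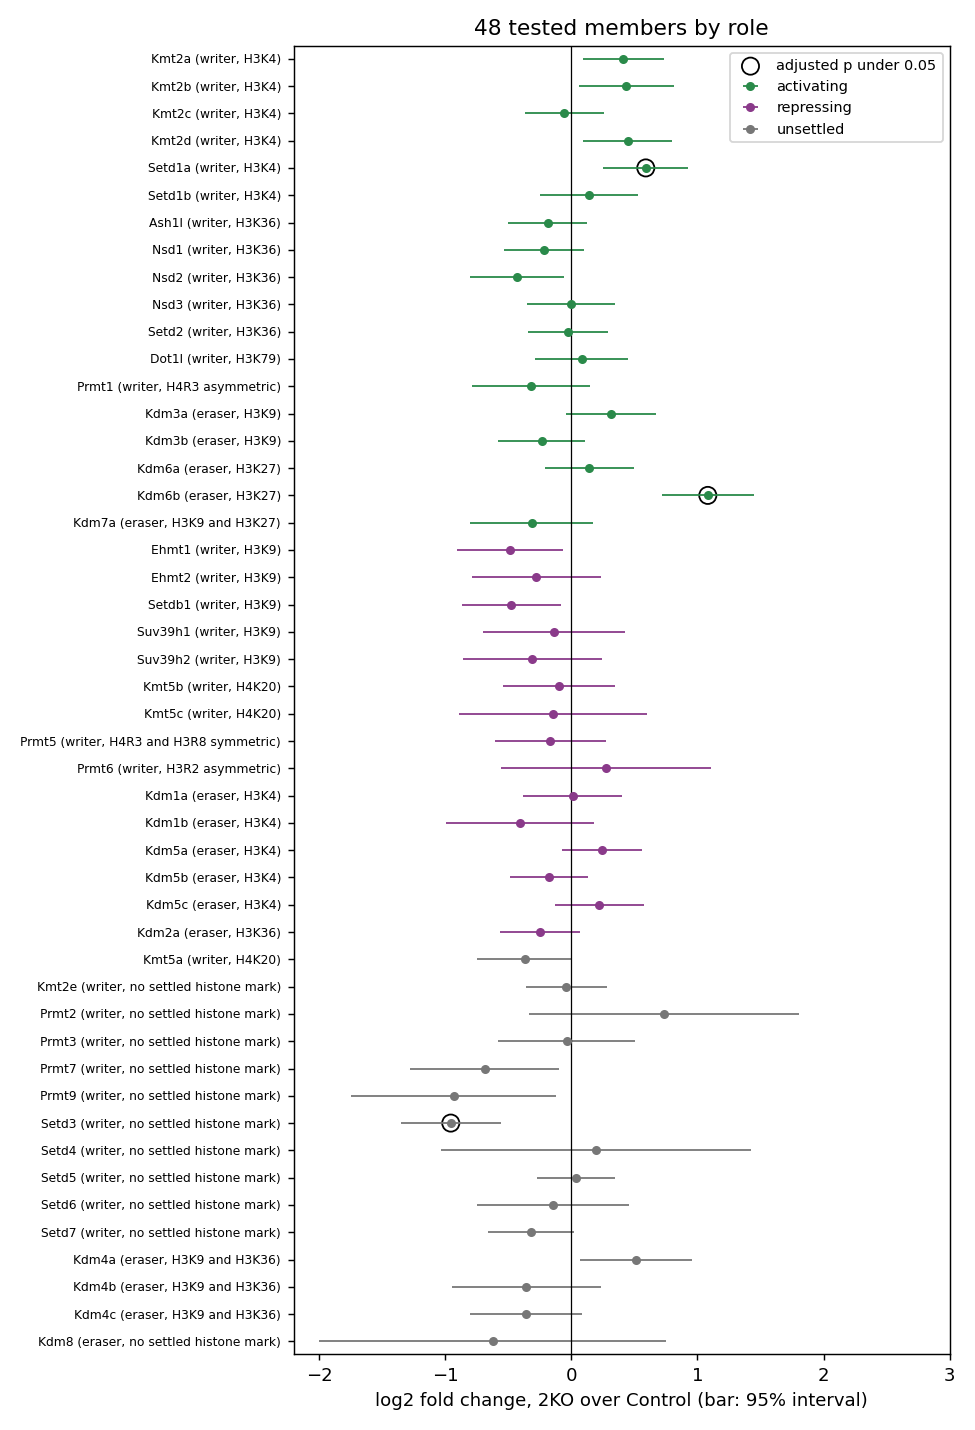
Log2 fold change (2KO over Control) of the 48 tested members with 95% intervals, ordered by role from activating through repressing to unsettled enzymes. Circled points passed the adjusted threshold: Kdm6b and Setd1a to the right of 0 and Setd3 to the left.

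Of the 6 H3K4 writers, 1 rose (Setd1a) and 5 did not pass; 5 had a positive log2 fold change, with a median of 0.42, but only 2 did, with a median of -0.08, once GC content and length were corrected for. With 1 library left out and no correction, the median ranged from 0.26 (without 2KO replicate 2) to 0.55. At an unadjusted p under 0.05 in edgeR, 4 of the 6 were higher and 0 lower (14.5% and 13.2% of all genes tested). With the correction 0 were higher and 0 lower. Kmt2a (MLL1), which maintains Hox gene expression in development and so opposes Polycomb silencing, had 493 and 459 CPM in 2KO and 385 and 331 CPM in Control (log2 fold change 0.41, adjusted p = 0.0936). Kmt2d, a main writer of H3K4 monomethylation at enhancers, had 609 and 795 CPM in 2KO and 549 and 481 CPM in Control (log2 fold change 0.45, adjusted p = 0.0971). In both genes the groups did not overlap, yet neither passed, and Kmt2d turned to -0.08 with that correction. Leaving out Control replicate 1 put both past the threshold (adjusted p = 0.0215 for Kmt2a and 0.0174 for Kmt2d), and Kmt2d also passed without 2KO replicate 1 (0.0258) and with no filter on low counts (0.0357). Over the 4 fits with 1 library left out, the log2 fold change ranged from 0.31 to 0.55 for Kmt2a and from 0.23 to 0.62 for Kmt2d, which without 2KO replicate 2 had an adjusted p of 0.585; Kmt2a without 2KO replicate 1 had 0.364.

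Kmt2b stood close to Kmt2d (log2 fold change 0.43, adjusted p = 0.125, and -0.07 with the correction). Kmt2c stood at -0.05 (-0.21 with the correction) and Setd1b at 0.14 (-0.38 with the correction), so the sign of Setd1b turned. All 5 H3K36 writers had values below 0, from -0.43 for Nsd2 to just under 0 for Nsd3, whose sign turned under other scalings (0.051 with upper-quartile scaling), and none passed in edgeR, DESeq2 or limma-voom, with 0 higher and 1 lower at an unadjusted p under 0.05 (14.5% and 13.2% of all genes). That one was Nsd2, at 97.7 and 93.7 CPM in 2KO and 116 and 143 CPM in Control (adjusted p = 0.122, and from 0.0373 without Control replicate 1 to 0.429 without Control replicate 2). Nsd3 was at 259 and 222 CPM in 2KO and 220 and 261 CPM in Control, with a 95% interval of -0.35 to 0.35. Dot1l, the H3K79 writer, was at 0.08, and at -0.30 with the correction. Prmt1, at 49.1 and 48.6 CPM in 2KO and 72.4 and 49.7 CPM in Control, did not pass (log2 fold change -0.32, adjusted p = 0.364), and ranged from -0.56 to -0.0015 with 1 library left out.

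Among activating erasers other than the H3K27 pair, the H3K9 eraser Kdm3b had 169 and 203 CPM in 2KO and 216 and 221 CPM in Control (log2 fold change -0.23, adjusted p = 0.371). Its relative Kdm3a had the opposite sign at 0.32, without passing. Kdm7a, which acts on H3K9 and H3K27, had 74.2 and 71.5 CPM in 2KO and 112 and 69.2 CPM in Control. Its Control libraries differed from each other more than the groups did: it was called lower when Control replicate 2 was left out (-0.61, adjusted p = 0.0360) and had the other sign without Control replicate 1 (0.10).

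The repressing enzymes include the H3K9 writers, which build heterochromatin and silence repeats and developmental genes. All 5 tested had negative log2 fold changes, with a median of -0.31, which with 1 library left out ranged from -0.49 (without 2KO replicate 2) to -0.21 (without 2KO replicate 1). None passed in edgeR, DESeq2 or limma-voom, with 0 higher and 2 lower at an unadjusted p under 0.05 (14.5% and 13.2% of all genes). Setdb1, the writer recruited by KRAB zinc-finger proteins, had 55.4 and 56.2 CPM in 2KO and 72.5 and 82.6 CPM in Control (log2 fold change -0.47, adjusted p = 0.107). Ehmt1 (GLP), a writer of H3K9 dimethylation, had 46.8 and 54.9 CPM in 2KO and 64.6 and 78.0 CPM in Control (-0.49, adjusted p = 0.123). Its partner Ehmt2 (G9a) had 31.4 and 45.2 CPM in 2KO and 50.7 and 42.1 CPM in Control, so its groups overlapped. Both were called lower only in the fit that combined the GC content and length correction with the replicate number as a block (adjusted p = 0.0322 for Ehmt1 and 0.0171 for Ehmt2).

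The heterochromatin writer Suv39h1, which is X-linked, had 23.1 and 35.6 CPM in 2KO and 30.1 and 34.4 CPM in Control (adjusted p = 0.783). Its autosomal paralog Suv39h2 stood at -0.31 without passing. The H4K20 writer Kmt5b had 98.8 and 108 CPM in 2KO and 132 and 88.7 CPM in Control (adjusted p = 0.806), and Prmt5, the main symmetric arginine methyltransferase, 44.4 and 58.0 CPM in 2KO and 54.6 and 60.3 CPM in Control (adjusted p = 0.647). The groups overlapped in Suv39h1, Kmt5b and Prmt5.

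Among the 6 repressing erasers none passed the test. Kdm2a, which removes H3K36 methylation and binds CpG islands, had 288 and 326 CPM in 2KO and 359 and 370 CPM in Control (log2 fold change -0.25, 95% interval -0.56 to 0.07). Kdm5b, an H3K4 eraser, had 279 and 294 CPM in 2KO and 331 and 317 CPM in Control (-0.18, 95% interval -0.49 to 0.13), though its sign turned on FPKM values (0.05). The X-linked H3K4 eraser Kdm5c had 138 and 160 CPM in 2KO and 124 and 131 CPM in Control (0.22, 95% interval -0.13 to 0.57), and stood at 0.05 with the correction and at 0.10 without 2KO replicate 2. Kdm1a (LSD1), the flavin-dependent H3K4 eraser of the CoREST complex, stood at 0.01 and Kdm1b at -0.41. Nor did any pass in DESeq2 or limma-voom, and 0 had an unadjusted p under 0.05 in edgeR.

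Of the 15 tested enzymes left unsettled, Setd3 fell, 0 rose and 14 did not pass, with 4 positive and 11 negative values. Their median log2 fold change was -0.32, lower than the repressing median of -0.17, and that of all 48 tested members was -0.14. With the correction for GC content and length the unsettled median was -0.22. Before adjustment, 1 was higher and 3 lower at p under 0.05 in edgeR (14.5% and 13.2% of all genes tested). Prmt7, a monomethylating arginine enzyme, had 14.2 and 16.4 CPM in 2KO and 21.3 and 28.2 CPM in Control (log2 fold change -0.69, adjusted p = 0.122, and from 0.0492 without Control replicate 1 to 0.421 without 2KO replicate 1). Kdm4b, which erases H3K9 and H3K36 methylation, had 28.8 and 18.3 CPM in 2KO and 32.4 and 27.9 CPM in Control (-0.36), and it was called lower only with the GC content and length correction and the block together (-0.73, adjusted p = 0.0484). Its value was -0.63 on log2(FPKM + 1), -0.07 without 2KO replicate 2 and -0.72 without 2KO replicate 1. The 12 others lay between -0.93 and 0.73.

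GC content and transcript length moved with these results. The longest transcripts of the H3K4 writers had a median length of 11.9 kb and a median GC content of 57.7%, against 3.30 kb and 50.0% over all genes tested. For the H3K9 writers the medians were 4.33 kb and 50.0%. Across all genes, those with a GC content of at least 54.7% and a length of at least 4.75 kb, the top 25% of genes by each, had a median log2 fold change of 0.40 (552 genes), close to that of the H3K4 writers. Those 552 genes include Setd1a, Kmt2b, Kmt2d, Setd1b, Dot1l and Kdm6b. With a correction for both properties the median of the 552 genes became 0.04 and that of the H3K4 writers -0.08, with 2 positive and 4 negative values, and that of the H3K9 writers became -0.49. The median of repressing enzymes was then -0.16. The correction was fitted to each library's own values, so it also removes any 2KO effect that follows GC content or length. A technical bias and such an effect cannot be told apart in these libraries. That the median of the 552 genes came near 0 follows from the fit itself. The part of GC content and length in the members' values beyond this correction was not tested.

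**Figure D4:**
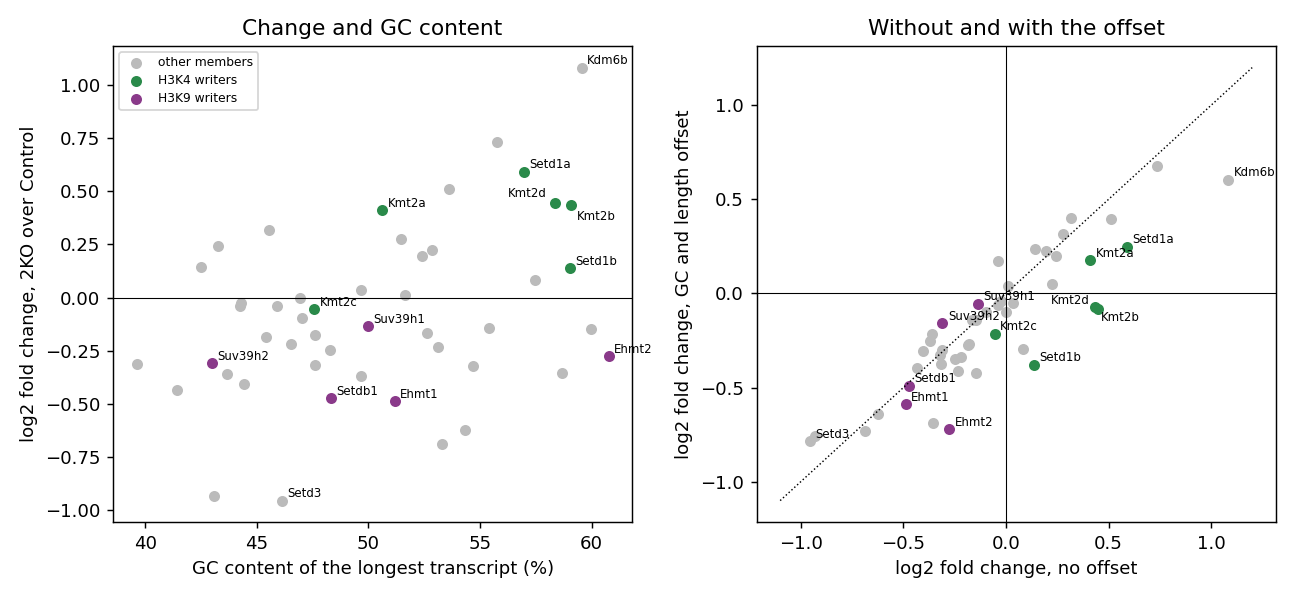
Left, log2 fold change (2KO over Control) of the 48 tested members against GC content of the longest transcript. Right, the same fold change without and with a correction for GC content and length (dotted line, equal values): Kmt2b and Kmt2d move from 0.43 and 0.45 to just below 0, while Kdm6b stays above and Setd3 below 0.

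Related enzymes and partners were taken from 6 lists. Of 18 other histone methylation enzymes, 2 rose, 2 fell and 14 did not pass. Mecom (EVI1) and Prdm16, zinc-finger factors of the PRDM family for which H3K9 monomethylation has been described, rose: Mecom had 26.2 and 20.9 CPM in 2KO and 1.37 and 0.939 CPM in Control (log2 fold change 4.33, adjusted p = 0.000113), and Prdm16 had 40.7 and 25.1 CPM in 2KO and 3.77 and 1.88 CPM in Control (3.53, adjusted p = 0.000387). Smyd3 and Hr, the hairless corepressor of hair follicle cycling, fell, at log2 fold changes of -1.30 and -1.02. The log2 fold changes of Mecom and Prdm16 were greater in size than that of any member.

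Of 17 genes of COMPASS partners, 0 rose and 2 fell. These were Dpy30, a core subunit needed for H3K4 methylation, at 20.6 and 28.6 CPM in 2KO and 43.3 and 59.9 CPM in Control (log2 fold change -1.07, adjusted p = 0.0194), and Pagr1a (-1.24, adjusted p = 0.0425). Of 16 H3K9 partners, Wiz rose (0.72) and Dnmt1, the maintenance DNA methyltransferase, fell (-0.66). Of 18 CoREST and KDM5 partners, Gse1 rose (0.76) and Hdac2 fell (-0.63). Of 10 PRMT5 and PRMT1 partners, Tdrd3 and Snrpd1 fell and none rose, and of 15 DOT1L and elongation partners, Leo1 fell and none rose. Over the 6 lists 4 genes rose and 9 fell, which is 13.8% of the 94 tested, beside 11.9% of all genes.

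Some writers are tied to the cell cycle, so proliferation genes are given beside them. Of 20 proliferation genes, 4 fell (Top2a, Ccna2, Cdk1 and Mcm5), none rose and 19 had a negative log2 fold change, with a median of -0.48. Among all genes tested 4.92% fell, 7611 of 15336 had a negative log2 fold change and the median was 0.01. The summed level of the proliferation genes was 1794 and 1880 CPM in 2KO and 2672 and 2702 CPM in Control. Kmt5a, whose protein is regulated through the cell cycle, had 212 and 165 CPM in 2KO and 264 and 224 CPM in Control without passing (adjusted p = 0.188). The part of proliferation in the values of Kmt5a, Ehmt1 and Setdb1 was not tested.

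Markers of other cells are given by their summed levels. The summed level of 10 endothelial markers, led by Cdh5 and Pecam1, was 53.9 and 75.0 CPM in 2KO and 35.9 and 29.1 CPM in Control, with 9 of 10 positive log2 fold changes, none called and none at 0 in all libraries. For 10 nerve and neural crest markers, it was 96.5 and 110 CPM in 2KO and 33.3 and 30.0 CPM in Control. Ncam1 held most of this in 2KO (75.9 and 88.4 CPM in 2KO, 7.40 and 11.3 CPM in Control) and rose. Of the 9 tested, 7 were positive and 2 negative, with a median log2 fold change of 2.78. The neuronal Elavl3 also rose (6.75 and 3.46 CPM in 2KO, 0.686 and 0.0587 CPM in Control), while the neuronal Tubb3 fell (2.72 and 1.83 CPM in 2KO, 15.6 and 8.39 CPM in Control). Blood and immune markers, led by Cd68 and Csf1r, summed to 53.5 and 45.9 CPM in 2KO and 25.7 and 21.8 CPM in Control. Most of this was Cd68 (47.2 and 39.0 CPM in 2KO, 21.3 and 11.9 CPM in Control), which rose; of the 5 tested, 2 were positive and 3 negative, with a median log2 fold change of -0.52. Skeletal muscle markers, led by Ttn and Actc1, summed to 68.4 and 80.3 CPM in 2KO and to 64.7 and 411 CPM in Control, so Control replicate 2 stood apart. Fibroblast markers (Dcn and Col1a1) summed to 416 and 398 CPM in 2KO and 320 and 394 CPM in Control. Melanocyte markers (Kit and Pmel) summed to 140 and 117 CPM in 2KO and 217 and 202 CPM in Control, mostly from Kit, which fell (126 and 103 CPM in 2KO, 207 and 189 CPM in Control); Pmel (0.16) and Mitf (0.54) did not pass, and the defining markers Tyr and Tyrp1 were at 0 in all libraries. Merkel markers (Krt18 and Sox2) summed to 228 and 253 CPM in 2KO and 160 and 170 CPM in Control, with Krt18 and Piezo2 called higher, Sox2 at -0.20 and 3 of the 7 tested negative. In bulk RNA, fewer cells of a type and less RNA per cell cannot be told apart, and the part of these cells in the members' values was not tested. Without Control replicate 2, Kdm6b (0.88) and Setd3 (-0.91) kept their calls and Setd1a (0.50) did not.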

How the data were processed

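Sorted tongue epithelium was analysed from deposited tables holding whole-number read counts per gene and FPKM values computed by the authors. The submitters' processing notes name mm10 and the tools HTSeq 0.6.1, DESeq2 1.6.3, Cufflinks 2.2.1 and TopHat2 2.0.13. Which of them made which column, the gene annotation and strandedness: not given in the sources used here. RNA was amplified and reads carry no molecular identifiers.

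Counts of all 4 libraries were compared, 2KO against Control without covariates, in edgeR 4.0.16 (R 4.3.3). Settings were TMM, filterByExpr, a two-sided quasi-likelihood test and Benjamini-Hochberg adjustment over 15336 genes at a threshold of 0.05. The fit was also run on simulated counts with an assumed spread, which cannot show the error rate of the calls made here. Alternatives were other scalings and filters, DESeq2 1.42.0, limma 3.58.1 (voom, and log2 FPKM with pseudocounts 1 and 0.1), a replicate block, removal of Rn45s, Malat1 and Lars2, an offset for GC content and length of the longest GENCODE transcript (24103 genes), and each library left out, where a lone library is assumed to vary like the other group.

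Members, classes and lists were chosen with earlier results of these data known. Named by rule are called members, the 2 of highest mean FPKM in each class of writers and erasers, the X-linked members, members called under an alternative, at most 4 called genes per partner list, and the 2 most abundant markers per cell type. Other named members (among them Kmt2b, Kmt2c, Setd1b, Dot1l, Kdm3a, Suv39h2, Setdb1, Kdm1a, Kdm1b, Kmt5a and Setd5) and the bounds that set apart GC-rich, long genes were chosen after their values were seen.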

Additional observations from a re-analysis of the deposited data

How the results depend on the processing

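The 2 members called higher became 1 with log2(FPKM + 1), log2(FPKM + 0.1), the GC content and length correction, and that correction with the replicate block, and 0 with log2(FPKM + 1) and no filter; the same holds for activating enzymes. The unfiltered limma fit called 0 of 24453 genes, with 3519 at an unadjusted p under 0.05. The 1 member called lower became 0 in it and 4 with the correction and block together, 2 of these repressing. Leaving out 1 library gave 1 to 4 members higher (4 without Control replicate 1, 1 without 2KO replicate 2 or Control replicate 2) and 1 to 3 lower (3 without Control replicate 1, 2 without Control replicate 2), and among activating enzymes 1 to 4 higher and 0 to 1 lower.

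Partner genes called higher (4) were 7 with DESeq2, 2 with log2(FPKM + 0.1), 0 unfiltered, 2 with the correction and 3 to 8 with 1 library left out (8 without Control replicate 1); those called lower (9) were 2 with log2(FPKM + 1), 2 with log2(FPKM + 0.1), 0 unfiltered and 4 to 13 with 1 library left out (4 without 2KO replicate 1 or Control replicate 2).

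The activating median (0.04) was 0.10 with log2(FPKM + 0.1), -0.16 with the correction, -0.15 with correction and block, 0.14 over erasers alone and -0.0015 to 0.06 with 1 library left out. The repressing median (-0.17) ranged from -0.26 to -0.040 with 1 library left out. The gap between them (0.21) was 0.0031 with the correction, 0.0056 with correction and block, 0.26 over lysine enzymes and 0.089 to 0.32 with 1 library left out. Counting Kmt5a as repressing and Kdm4a, Kdm4b and Kdm4c as activating gave a gap of 0.17.

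The sign turned for Kdm5b on FPKM (0.051 with a pseudocount of 1, filtered or not, and 0.053 with 0.1), for Kmt2d with the correction (-0.083, or -0.089 with the block), as for Kmt2b (-0.07), Setd1b (-0.38), Dot1l (-0.30), Setd5 (-0.05) and Prmt3 (0.17 with it, -0.04 without it), and with Control replicate 1 left out for Kdm7a and Kmt5b or 2KO replicate 1 left out for Prmt5 and Suv39h1. With 1 library left out, Kdm7a ranged from -0.61 to 0.098, Kmt5b from -0.35 to 0.24, Prmt5 from -0.38 to 0.010 and Suv39h1 from -0.49 to 0.14. Nsd3, near 0, turned to 0.0092 (RLE), 0.051 (upper quartile), 0.0054 (DESeq2), 0.0017 (limma-voom), 0.0082 (1 CPM filter), 0.00062 (replicate block), 0.088, 0.090 and 0.088 (FPKM with pseudocounts 1, 0.1 and 1 unfiltered) and 0.020 (without Rn45s, Malat1 and Lars2), and it ranged from -0.12 to 0.13 with 1 library left out. The causes were not tested.

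Whether same-numbered libraries share a litter or batch is not stated in the labels. They did not deviate together across genes (r = -0.012 across 15336 genes, which are not independent). With so few libraries this value cannot exclude a shared litter or batch. With the block 2 members were called higher and 1 lower, and 1156 genes higher and 880 lower over all genes, beside 1073 and 754 without it. With the GC content and length correction, the block gave 1384 genes higher and 1076 lower, beside 1000 and 695 without it. With 2 libraries per group, small changes of scarce members such as Prmt2 and Kdm8 were not detectable at this depth.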

Other observations

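The counts and the FPKM values disagree for Setdb2, an H3K9 writer. It had 2 and 10 counts in 2KO and 10 and 8 counts in Control, while the deposited FPKM averaged 2.58 ± 0.969 in 2KO and 2.70 ± 0.631 in Control. The deposited FPKM was 20.3 times the value that the counts give over its longest transcript, whereas the median of this ratio over 12293 genes of at least 1 FPKM was 1.11 and its 95th percentile 2.92. The files list the read-through gene Setdb2-phf11c beside it, with 0 counts in every library.

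Setdb2, Kdm4d, Prmt8 and Setdb2-phf11c were the members with too few counts to test. Kdm4d, a testis-enriched H3K9 eraser, had 7 and 2 counts in 2KO and 7 and 23 counts in Control. Prmt8, a brain-enriched arginine methyltransferase, had 0 and 8 counts in 2KO and 1 and 6 counts in Control.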
